A study of Homo sapiens with 9 samples.

Results

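The regions described here are stretches of γH2AX signal on human chromosomes 13 and 18, away from their ends and from the centromere of chromosome 18. They were chosen by position alone in the build hg19: on chromosome 13 every called region with its midpoint between 23000000 and 114100000, and on chromosome 18 every called region with its midpoint between 1000000 and 13400000 or between 20500000 and 77000000. This gave 3304 of the 234983 regions called in 8 libraries, of which 694 lay on chromosome 13 and 2610 on chromosome 18. The question behind the study was what FANCL does in DNA repair and in the differentiation of blood cells. The cells were K562, a line established from human myelogenous leukaemia, and ChIP-seq (sequencing of DNA recovered with an antibody) showed where their chromatin carried γH2AX. The 4 groups were wild-type (WT) cells after mock treatment, WT cells after 5 nM PMA, FANCL-KO cells (knocked out for FANCL, written KO here) after mock treatment, and KO cells after 5 nM PMA, all for 72 h and with 2 libraries each. The single input library came from WT mock cells and served as the background for every list. Nothing in the labels says that the 2 libraries of a group came from separate cultures, so the p-values below measure only how far these libraries scatter, and that scatter may be technical. The labels do not say whether the KO cells are 1 clone, and the region lists hold no measure of FANCL or of any cell marker, so genotype and cell type rest on the labels.

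H2AX is a variant of the core histone H2A. The kinases ATM, ATR and DNA-PK phosphorylate it around DNA breaks and stalled replication forks, and the phosphorylated form, γH2AX, spreads over the chromatin on both sides of the lesion and helps to hold repair factors there. FANCL is the ubiquitin ligase of the Fanconi anaemia core complex, which attaches ubiquitin to FANCD2 and FANCI so that interstrand crosslinks can be repaired. PMA is a phorbol ester that activates protein kinase C and drives K562 cells towards the megakaryocyte lineage. Gene-poor chromosomes such as 13 and 18 tend to lie near the nuclear periphery and to replicate late, and large parts of them are transcribed little.

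The label gene-poor held in the RefSeq gene table, which was used for counts of genes only because it is on another build. It lists 338 protein-coding genes on chromosome 13 and 270 on chromosome 18. Relative to the last position called on each chromosome these are 2.94 and 3.46 genes per Mb, the lowest and second lowest of 23 chromosomes (1 to 22 and X). The regions were few as well. They made up between 0.713% and 2.53% of a library's regions.

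Depth ran from 15.6 to 27.2 M tags per library (M, mega), the tag threshold of the caller from 5.89 to 7.69 tags per 10 M, and the share of tags inside regions, which the file headers give as the approximate efficiency of the immunoprecipitation, from 1.39% to 7.96%. That share was lowest in WT mock (1.39% and 1.55%), intermediate in KO mock (3.42% and 3.67%) and WT PMA (4.24% and 4.69%), and highest in KO PMA (6.69% and 7.96%). It moved with genotype and treatment, so more γH2AX and a more efficient immunoprecipitation cannot be told apart in any covered length given here. The tag threshold per 10 M also split by genotype, from 5.89 to 7.07 in WT libraries and from 7.12 to 7.69 in KO libraries. Comparisons of KO with WT therefore set a stricter threshold in KO against a looser one in WT, unless one tag threshold is named. All values are lengths or counts of regions that passed a threshold; a window listed at 0 held no called region, which does not show that it held no γH2AX.

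Covered length is the total of base pairs that lie in called regions. On chromosome 13 the 2 WT mock libraries held 46.2 and 32.0 kb in 82 and 59 regions. In WT PMA cells they held 76.3 and 72.8 kb in 134 and 132 regions. KO mock libraries held 50.3 and 43.4 kb in 90 and 78 regions, and KO PMA libraries 41.9 and 23.04 kb in 75 and 44 regions. The WT PMA libraries thus stood above all others and the KO PMA libraries below all others except WT mock replicate 2, while the mock groups of both genotypes overlapped. On chromosome 18 the WT PMA libraries stood apart by more. They held 536 and 394 kb in 716 and 558 regions, against 167 and 89.8 kb in WT mock, 135 and 111 kb in KO mock, and 139 and 140 kb in KO PMA. The 6 libraries of the other groups lay between 161 and 280 regions.

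**Figure D1:**
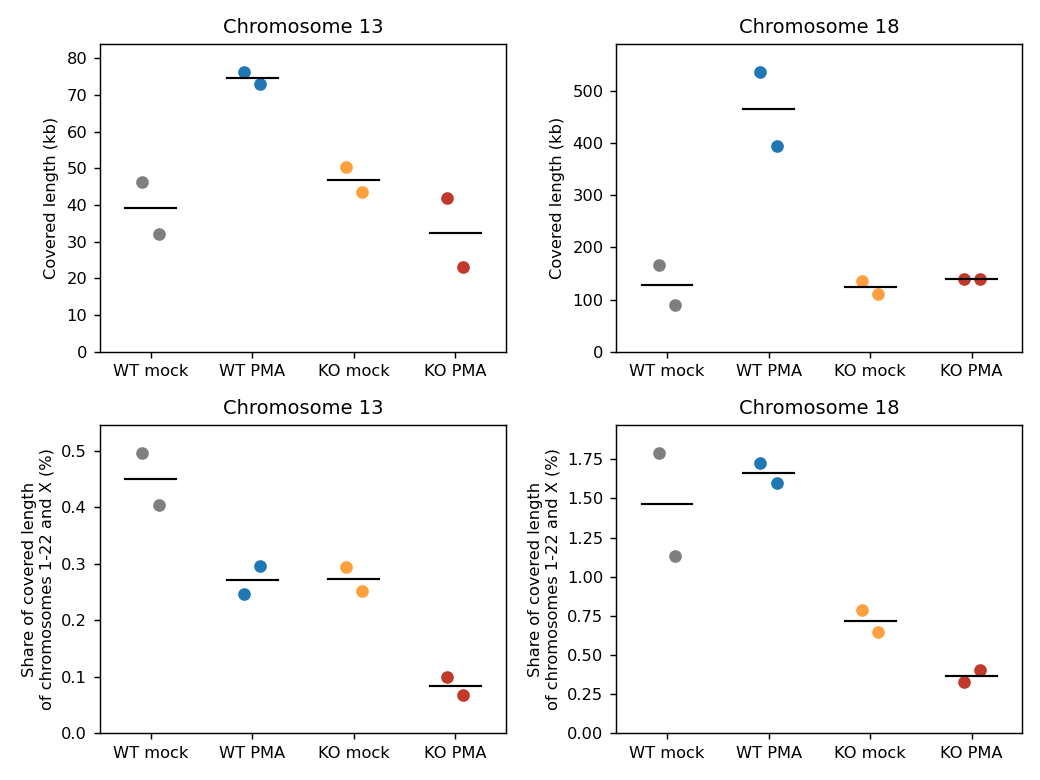
Upper plots, covered length in kb inside the intervals of chromosomes 13 and 18; lower plots, that length as a percent of the length covered on chromosomes 1 to 22 and X. Each of the 8 libraries is a point, with replicate 1 to the left, and bars are group means; both WT PMA libraries lie above the other 6 in covered length (76.3 and 72.8 kb, and 536 and 394 kb), and both KO PMA libraries lie lowest in share.

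Relative to the length of the intervals, chromosome 13 held 0.429 ± 0.11 kb of called regions per Mb in WT mock (SD, n = 2, as for each group mean below), 0.818 ± 0.0265 in WT PMA, 0.515 ± 0.0534 in KO mock, and the least, 0.357 ± 0.147, in KO PMA. Among 23 chromosomes it ranked 3, 2, 2 and 1 from the lowest in these groups. Chromosome 18 held 1.86 ± 0.79, 6.75 ± 1.47, 1.79 ± 0.242 and 2.02 ± 0.0109 kb per Mb, and ranked 7, 8, 4 and 3 from the lowest. These ranks set the interiors of chromosomes 13 and 18 beside the other chromosomes whole. With both taken whole, chromosome 13 ranked 3, 3, 2 and 1 and chromosome 18 ranked 18, 9, 5 and 3, so the rank of chromosome 18 in WT mock depends on the parts left out. The other chromosomes together held 2.97 ± 0.324 kb per Mb in WT mock and 5.99 ± 0.0324 in KO mock, and after PMA 9.61 ± 1.57 in WT and 13.5 ± 1.99 in KO.

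Most regions were short. The caller scans windows of 500 bp, and between 76.7% and 86.4% of the regions on chromosome 13 were no longer than that, depending on the library. On chromosome 18 the share of such shortest regions was 59.8% and 59.9% in the WT PMA libraries and between 72.2% and 83.2% in the other 6. On the other chromosomes it ran from 49.3% to 71.2%. The longest region on chromosome 13 spanned 2004 bp, in KO PMA replicate 1. The longest on chromosome 18 spanned 5665 bp, in WT PMA replicate 1, from 9125982 to 9131647, and had the authors' fold of 3.68 over input.

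The fold over input is the authors' own value for each region. On chromosome 13 the median fold was 3.66 and 3.41 in the WT mock libraries, 3.52 and 4.28 in KO mock, 4.41 and 4.65 in KO PMA, and 5.81 and 6.03 in WT PMA. The share of regions of at least 6-fold followed the same order of groups, at 10.7% ± 5.55, 18.9% ± 9.49, 32.8% ± 4.97 and 49.3% ± 4.25. Chromosome 18 showed a narrower range, with median folds from 4.36 to 5.02 and between 22.9% and 34.2% of regions at 6-fold or more.

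The edges of the intervals were not edges of the signal in every case. In the 500 kb just inside the chromosome 13 limit at 114.1 Mb, WT mock libraries had no region, WT PMA libraries 7.49 and 6.93 kb, KO mock 2.87 and 3.13 kb, and KO PMA 4.44 and 3.33 kb. Just outside it these were 1.5 and 4.0 kb, 12.1 and 8.02 kb, 9.97 and 11.5 kb, and 7.31 and 8.22 kb. Both sides of the limit at 23 Mb were empty in all 8 libraries. On chromosome 18 the 500 kb outside the limit at 1 Mb held 39.4 and 29.8 kb in WT mock, 46.0 and 37.5 kb in WT PMA, 4.43 and 4.13 kb in KO mock, and 10.5 and 8.53 kb in KO PMA, whereas the 500 kb inside it held between 0 and 5.79 kb in any library. The regions outside the intervals, which on chromosome 18 include those around the centromere, were a large part of the chromosome in WT mock, where they made up 48.7% and 60.0% of all chromosome 18 regions, and a smaller part in KO PMA, at 15.7% and 13.7%. On chromosome 13 they made up between 34.3% and 48.8% of the regions of a library.

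Regions were counted in windows of 1 Mb, which are named here by their start: the 113-Mb window runs from 113000001 to 114000000. Windows cut by a limit (13 and 20 Mb on chromosome 18, 114 Mb on chromosome 13) hold only their part inside it. Of 92 windows on chromosome 13, 46 held a called region in any library and 5 in all 8 libraries. A WT mock library had regions in 14 or 10 windows, a WT PMA library in 37 or 31, a KO mock library in 17, and a KO PMA library in 17 or 15. On this chromosome 50% of the covered length sat in 3 and 2 windows in WT mock, 6 in each WT PMA library, 3 in KO mock and 4 in KO PMA.

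In mock-treated cells the covered length of chromosome 13 was concentrated in 1 stretch, which held between 48.7% and 74.2% of it in each of the 4 libraries. The limits of this stretch and of those below were set after the values were seen, so they are described without a test. The 4 windows from 90 to 94 Mb held 27.5 and 23.8 kb in WT mock and 32.7 and 21.2 kb in KO mock. This was 66.9% ± 10.3 of the chromosome's covered length in WT mock and 56.8% ± 11.5 in KO mock. After PMA the same windows held 6.52 and 9.29 kb in WT and 10.9 and 5.23 kb in KO, which was 10.7% ± 2.98 and 24.3% ± 2.27. All 4 PMA libraries lay below all 4 mock libraries here. Within the stretch the 91-Mb window was the fullest by group mean in both mock groups, with 11.4 and 8.39 kb in WT and 10.4 and 7.31 kb in KO, although in WT mock replicate 2 the 93-Mb window held more, at 9.74 kb.

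The 108-Mb window held 11.3 and 4.63 kb in WT mock, 8.46 and 3.24 kb in WT PMA, 0.644 and 0.5 kb in KO mock, and 1.8 and 1.69 kb in KO PMA. Both WT groups thus stood above both KO groups. The longest WT mock region of chromosome 13 lay here (108514426 to 108516181, 1755 bp, 2.13-fold), and so did both sites of the chromosome that were called in 5 libraries, from 108529669 to 108531139 and from 108540704 to 108542361. The 81-Mb window, with 0.5 to 4.71 kb, was also covered in all 8 libraries.

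**Figure D2:**
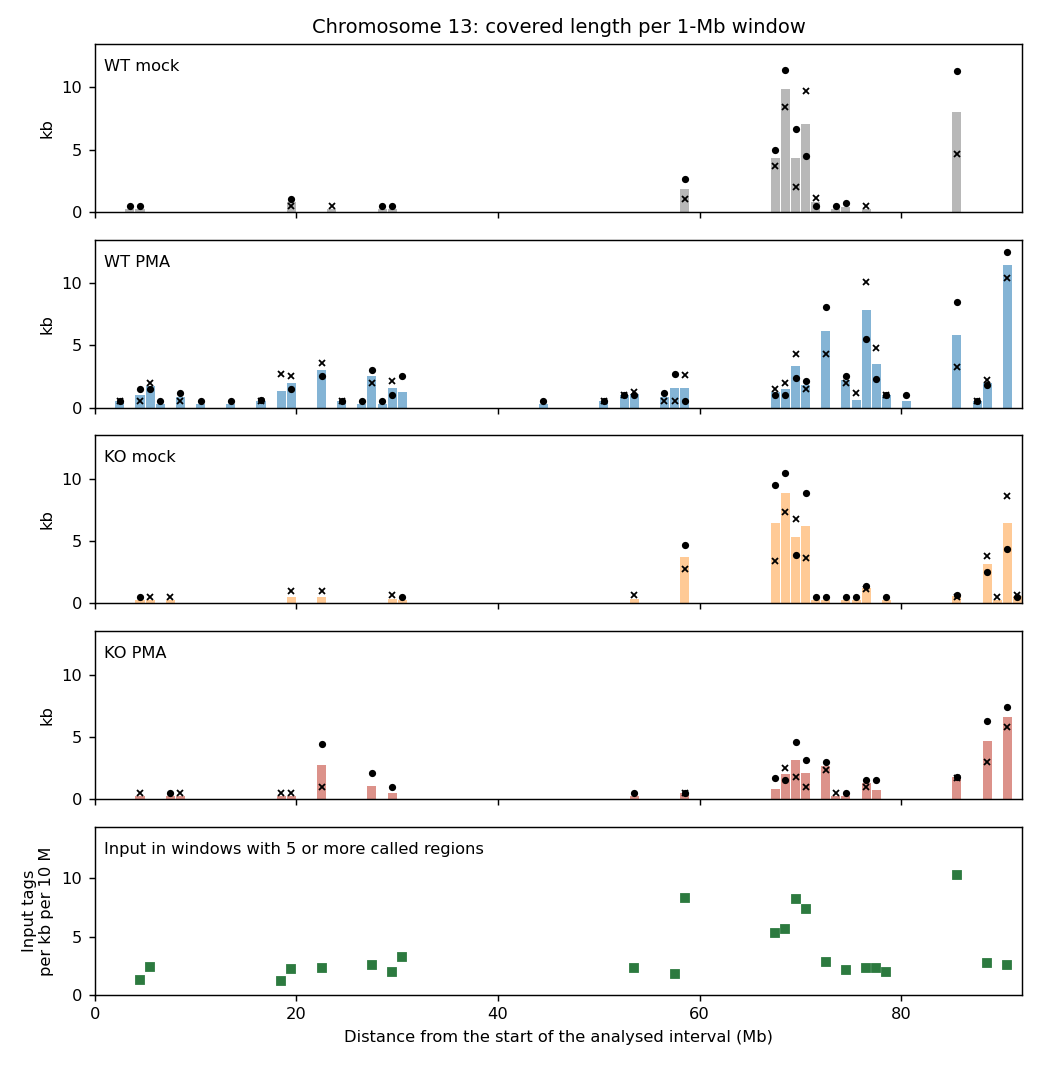
Covered length in kb per 1-Mb window along the analysed interval of chromosome 13 in the 4 groups (bars, group mean; circles and crosses, replicates 1 and 2), with the input level of the called regions in the lowest panel; the horizontal axis is the distance from the start of the interval in Mb. Mock-treated cells peak at about 68 Mb on this axis (the windows from 90 Mb), where the input is also raised, and WT PMA cells spread over the chromosome.

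These windows also had high input. Dividing the authors' tag count of each region by its fold gives the input signal in that region. It came to 6.61 tags per 10 M per kb in regions from 90 to 94 Mb, 8.34 in the 81-Mb window and 10.3 in the 108-Mb window, against 2.44 in the remaining regions of chromosome 13, 3.43 on chromosome 18 and 4.52 on the other chromosomes. The neighbouring 94-Mb window had 9.55, from 4 regions. The median fold was correspondingly low, at 3.44, 3.1 and 2.67 in the 3 places and 6.16 in the rest of chromosome 13. The input came from WT mock cells alone, and the part of the input level, or of a DNA copy number that differs between groups, in these results was not tested.

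The 6 windows at 81, 90 to 94 and 108 Mb, a grouping made after seeing the input that leaves out the thinly covered 94-Mb window, held 89.8% and 91.8% of the chromosome 13 length in WT mock. The share was 75.6% and 56.2% in KO mock, 31.4% and 32.2% in KO PMA, and 20.3% and 20.8% in WT PMA. The other 86 windows held 4.73 and 2.64 kb in WT mock, 12.3 and 19.0 kb in KO mock, 28.8 and 15.6 kb in KO PMA, and 60.8 and 57.7 kb in WT PMA. With the 94-Mb window added, so that all 7 windows of input over 5 are in, the share was 90.8% and 95.3% in WT mock, and 4.23 and 1.5 kb lay elsewhere. Outside the 6 windows the WT mock libraries were the lowest and the WT PMA libraries the highest, and neither overlapped another group.

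**Figure D3:**
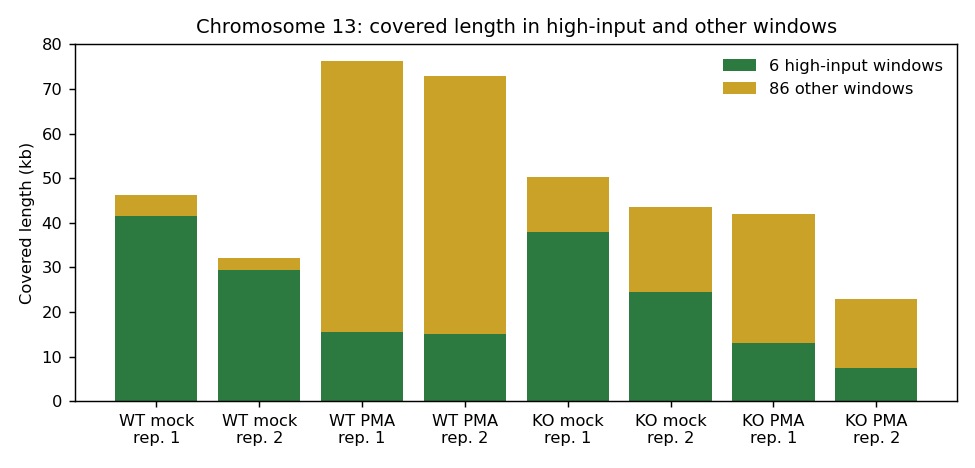
Covered length in kb on chromosome 13 in each of the 8 libraries, split into the 6 windows with high input (81, 90 to 94 and 108 Mb) and the 86 other windows (stacked bars). In WT mock the 6 windows hold 89.8% and 91.8% of the length, and in WT PMA 20.3% and 20.8%.

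Away from those windows chromosome 13 fell into a few further stretches. From 23 to 54 Mb, WT PMA libraries held 18.8 and 17.5 kb in 37 and 33 regions, KO PMA libraries 8.06 and 3.0 kb, KO mock libraries 1.0 and 3.65 kb, and WT mock libraries 3.0 and 1.0 kb. From 95 to 101 Mb the WT PMA libraries held 18.4 and 22.3 kb, KO PMA 6.5 and 3.8 kb, KO mock 2.9 and 1.14 kb, and WT mock 1.23 and 0.5 kb. In both stretches every WT PMA library lay above every other library. Between 54 and 73 Mb the 8 libraries together held 1 region, in WT PMA replicate 1.

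The distal stretch from 111 Mb to the limit differed from these. It was listed at 0 in both WT mock libraries and held 14.3 and 12.6 kb in WT PMA, 7.37 and 13.6 kb in KO mock, and 13.7 and 8.83 kb in KO PMA. The 3 groups other than WT mock overlapped. Most of the length sat in the 113-Mb window, with 12.5 and 10.4 kb in WT PMA, 4.37 and 8.61 kb in KO mock, and 7.44 and 5.83 kb in KO PMA. The input in this window was 2.52 tags per 10 M per kb, close to the rest of the chromosome.

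Chromosome 18 was concentrated in its short arm. Of 70 windows, 49 held a region in any library and 16 in all 8. On this chromosome 50% of the length sat in 3 windows in each WT mock library, 4 in each PMA library of either genotype, and 7 and 8 in the KO mock libraries. The interval from 1 to 14 Mb held 127 and 68.8 kb in WT mock, which was 76.3% ± 0.546 of the chromosome's covered length. It held 337 and 241 kb (62.0% ± 1.09) in WT PMA, 63.2 and 56.8 kb (48.9% ± 2.93) in KO mock, and 89.7 and 89.8 kb (64.5% ± 0.345) in KO PMA.

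Within the short arm the 9-Mb window was the fullest by group mean in every group except KO mock, where the 8-Mb window was. The 9-Mb window held 40.7 and 17.0 kb in WT mock, 111 and 67.6 kb in WT PMA, 9.85 and 11.8 kb in KO mock, and 22.4 and 31.2 kb in KO PMA. The 2-Mb window held 28.6 and 11.0 kb, 88.3 and 63.3 kb, 6.22 and 7.66 kb, and 19.2 and 12.5 kb in the same order of groups. The 3-Mb window followed with 20.8 and 19.6 kb, 47.6 and 39.0 kb, 6.7 and 5.76 kb, and 17.4 and 14.4 kb. In the windows at 9, 2 and 3 Mb the WT PMA libraries were the highest and the KO mock libraries the lowest. The groups were closer together in the 8-Mb window. It held 18.7 and 8.0 kb in WT mock and 22.6 and 17.7 kb in WT PMA. KO mock libraries held 13.4 and 10.6 kb there, and KO PMA libraries 11.7 and 13.7 kb. KO mock had the lowest group mean in this window too, but the lowest single library was WT mock replicate 2. Between these blocks the 4 windows from 4 to 8 Mb held at most 3.0 kb in any library, and none in WT PMA.

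Next to the centromere, the interval from 20 to 35 Mb held 36.0 and 19.5 kb in WT mock, 157 and 121 kb in WT PMA, 57.5 and 41.8 kb in KO mock, and 36.1 and 35.3 kb in KO PMA. Its share of the chromosome was 40.1% ± 3.56 in KO mock, against 21.6% ± 0.0759 in WT mock, 30.1% ± 1.09 in WT PMA and 25.7% ± 0.56 in KO PMA. The 20-Mb window was the fullest of chromosome 18 by group mean in KO mock cells, at 17.1 and 7.05 kb, and held 34.8 and 35.3 kb in WT PMA. The remaining 42 windows, from 35 to 77 Mb, held 4.25 and 1.5 kb in WT mock and 42.3 and 31.0 kb in WT PMA. They held 14.3 and 12.8 kb in KO mock, and 12.8 and 14.7 kb in KO PMA. There the WT mock libraries were the lowest and the WT PMA libraries the highest, while the KO groups overlapped.

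**Figure D4:**
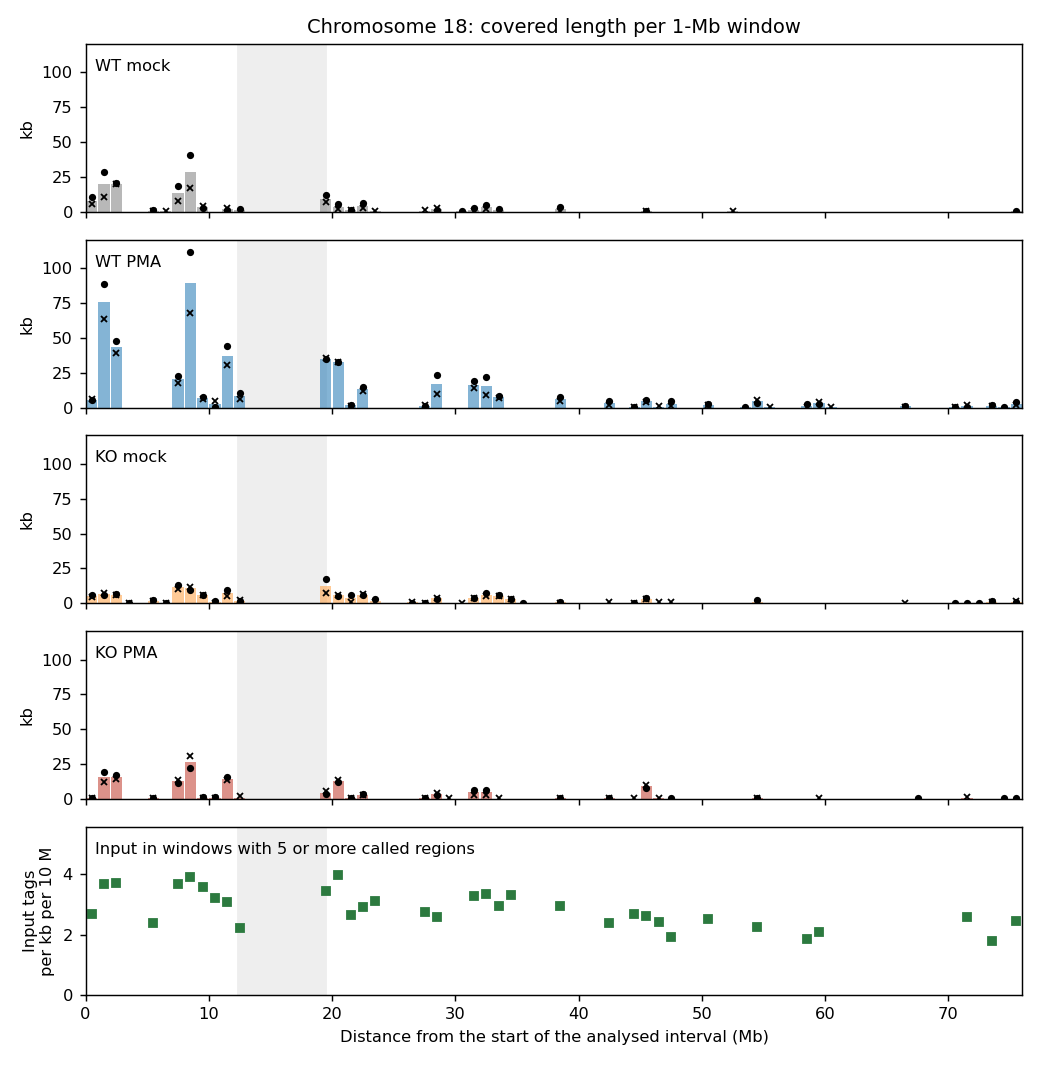
Covered length in kb per 1-Mb window along the analysed interval of chromosome 18 in the 4 groups (bars, group mean; circles and crosses, replicates 1 and 2), with the input level of the called regions in the lowest panel; the grey band marks the part around the centromere that was left out, and the horizontal axis is the distance from the start of the interval in Mb. The tallest bars are those of WT PMA in the short arm, with 111 and 67.6 kb in the 9-Mb window.

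On chromosome 13 both WT PMA libraries lay above the 6 others in 17 of 46 covered windows, both KO mock libraries in 2, and both libraries of WT mock or KO PMA in 0. The same held on chromosome 18 in 19 of 49 windows for WT PMA, 5 for KO mock, 1 for KO PMA and 0 for WT mock. The WT PMA shares, 37.0% and 38.8%, were near the 40.0% of 2042 covered windows on the other chromosomes. The KO PMA shares were 0% and 2.04%, beside 17.3% on the other chromosomes. Windows covered in WT PMA alone numbered 14 on chromosome 13 (30.4%) and 5 on chromosome 18 (10.2%), beside 6.07% elsewhere. These shares were not tested against each other.

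The 4 groups were compared in pairs, and since each group enters 2 of the 4 pairs, these comparisons share libraries. In mock-treated cells the genotypes overlapped in covered length on both chromosomes, and single windows differed. Covered length was 1.21-fold higher in KO on chromosome 13 and 1.0-fold on chromosome 18, the groups overlapped, and the exact two-sided permutation p was 0.667 and 1.0 (with 2 libraries against 2 the smallest p is 0.333). The result for chromosome 18 depended on the regions taken. KO was 1.99-fold higher with one tag threshold and 2.34-fold lower with the same number of regions, each without overlap. Of the 78 windows of chromosomes 13 and 18 covered in at least 2 libraries, 11 were higher and 2 lower in KO by limma at an adjusted p under 0.05. Over all 1927 windows of the genome these shares were 29.3% and 6.02%. The median window differed by 0.29 on the log2(covered bp + 1000) scale, against 0.34 over all windows. Chromosome 13 had 3 higher and 1 lower of 37, and chromosome 18 had 8 higher and 1 lower of 41. Of the 13 calls, 5 rested on group means under 2 kb.

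The 113-Mb window of chromosome 13 rose from 0 in both WT mock libraries to 4.37 and 8.61 kb in KO mock (log2 difference 2.84, SE 0.36, limma adjusted p = 0.00216). The 111-Mb window rose from 0 to 2.5 and 3.83 kb (2.04, SE 0.39, adjusted p = 0.00937). Against windows listed at 0 these log2 differences depend on the added 1000 bp and are no measure of fold. On chromosome 13 the 108-Mb window fell, from 11.3 and 4.63 kb to 0.644 and 0.5 kb (−2.41, SE 0.54, adjusted p = 0.0169). That call ended without WT mock replicate 1 (adjusted p = 0.0758), KO mock replicate 1 (0.0811) or KO mock replicate 2 (0.0878), and the call at 111 Mb without KO mock replicate 2 (0.0571). The 114-Mb window, which also rose, held 1 region in each KO mock library.

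The 35-Mb window of chromosome 18 was covered in KO mock alone, at 3.0 and 3.16 kb (2.03, SE 0.12, adjusted p = 0.000459). The other 6 libraries are at 0 there, so the small SE comes from groups with no spread, and leaving out a library is no check of this call. The neighbouring 34-Mb window rose from 2.0 and 0 kb to 5.6 and 5.0 kb (1.86, SE 0.57, adjusted p = 0.0481), and the 12-Mb window from 1.0 and 2.5 kb to 9.27 and 5.22 kb (1.59, SE 0.39, adjusted p = 0.0234). The call at 34 Mb ended without WT mock replicate 2 (adjusted p = 0.122), KO mock replicate 1 (0.174) or KO mock replicate 2 (0.15). The call at 12 Mb ended without WT mock replicate 1 (0.096) or KO mock replicate 1 (0.123). The 3-Mb window fell from 20.8 and 19.6 kb to 6.7 and 5.76 kb (−1.55, SE 0.19, adjusted p = 0.00209). The number of called windows fell from 13 to 8 without KO mock replicate 1 or with equal numbers of regions taken per library, which gave 1 higher and 7 lower. Centring each library on its median window, which shifts the median of all windows by −0.51, gave 5 higher and 7 lower. It moves every window of a comparison by the same amount, windows without a called region included. Counts after centring, here and below, therefore do not show that called signal changed direction.

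After PMA, covered length in KO was 2.4-fold lower on chromosome 13 and 3.3-fold lower on chromosome 18 than in WT. The groups did not overlap (exact two-sided permutation p = 0.333 each, the smallest possible). The chromosome 13 result depended on the tag threshold. At a threshold common to the 8 libraries its difference shrank to −0.35 on the log2 scale, and the groups overlapped. Chromosome 18 stayed lower in KO at that threshold, by −1.19 and without overlap. Of 78 windows, 37 were lower in KO, 14 of 37 on chromosome 13 and 23 of 41 on chromosome 18, and 0 were higher (2 at an unadjusted p under 0.05). Over all windows 38.8% were lower and 16.2% higher by limma. The median difference was −0.75 (all windows −0.70), and 14 of the 37 calls rested on group means under 2 kb.

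Chromosome 18 held the larger of these differences. The 34-Mb window went down from 8.48 and 6.75 kb in WT PMA to 0 and 0.5 kb in KO PMA (−2.81, SE 0.57, limma adjusted p = 0.00882), the 20-Mb window from 34.8 and 35.3 kb to 3.29 and 5.99 kb (−2.72, SE 0.47, adjusted p = 0.0056), and the 13-Mb window from 10.3 and 6.44 kb to 0 and 1.85 kb (−2.44, SE 0.76, adjusted p = 0.0361). On chromosome 13 the 99-Mb window went down from 5.54 and 10.1 kb in WT PMA to 1.5 and 1.0 kb in KO PMA (−1.93, SE 0.39, adjusted p = 0.00911), the 100-Mb window from 2.29 and 4.76 kb to 1.5 and 0 kb (−1.46, SE 0.48, adjusted p = 0.0421), and the 28-Mb window from 1.5 and 2.0 kb to 0 in both (−1.45, SE 0.22, adjusted p = 0.0033). The groups did not overlap in any of these windows. The 28-Mb window was listed at 0 in both WT mock and both KO PMA libraries. Its small SE comes in part from groups with no spread, and its log2 difference depends on the added 1000 bp. Leaving out a KO PMA library is no check of that call.

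Several of these calls depended on 1 library. The 34-Mb call ended without WT PMA replicate 1 (adjusted p = 0.0663) or KO PMA replicate 1 (0.052). The 13-Mb call ended without WT PMA replicate 1 (0.179), WT PMA replicate 2 (0.0978) or KO PMA replicate 1 (0.167). The 100-Mb call ended without WT PMA replicate 1 (0.0758), WT PMA replicate 2 (0.193) or KO PMA replicate 2 (0.151). The number of windows called was 20 without WT PMA replicate 1, and 21 and 22 when replicate 1 or 2 of KO PMA was left out. With one tag threshold for all libraries it was 2 higher and 9 lower. Centring turned the split to 23 higher and 3 lower by moving every window up by 1.25, also windows empty in every PMA library, such as 35 Mb on chromosome 18. The lower windows are thus lower in covered length. The counts after centring do not show how many are lower relative to the library's median window. Among the windows named in the 4 comparisons, 22 kept direction and call under centring, and 9 kept the direction but lost the call.

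In WT cells PMA went with more covered length on both chromosomes, more so on chromosome 18. It was 1.94-fold higher after PMA on chromosome 13 and 3.75-fold higher on chromosome 18, without overlap (exact two-sided permutation p = 0.333 each, the smallest possible). On chromosome 13 this direction turned with one tag threshold for all libraries, to −0.39 on the log2 scale, and with the same number of regions, to −0.94. Of 78 windows 44 were higher, 20 of 37 on chromosome 13 and 24 of 41 on chromosome 18, and 3 were lower. These shares stand beside 65.5% and 1.82% of all windows by limma. The median difference was 0.93 against 1.51 over all windows, and 20 of the 47 calls rested on group means under 2 kb, 14 of them on chromosome 13.

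The 113-Mb window of chromosome 13 went from 0 in both WT mock libraries to 12.5 and 10.4 kb (3.63, SE 0.36, limma adjusted p = 0.00105), the 95-Mb window from 0 in both to 8.09 and 4.3 kb (2.79, SE 0.38, adjusted p = 0.00206), and the 99-Mb window from 0 and 0.5 kb to 5.54 and 10.1 kb (2.80, SE 0.39, adjusted p = 0.00226). The 91-Mb window, inside the stretch of high input, fell from 11.4 and 8.39 kb to 1.0 and 2.0 kb (−2.14, SE 0.37, adjusted p = 0.00409). The 94-Mb window next to it fell from 0.5 and 1.14 kb to 0 (−0.84, SE 0.24, adjusted p = 0.0243), a call that ended without WT mock replicate 2 (0.111), WT PMA replicate 1 (0.105) or WT PMA replicate 2 (0.0971). The other 4 windows named in this paragraph kept their calls without each of the 4 libraries, in fits where the lone library left in a group is assumed to vary like the other groups.

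The 12-Mb window of chromosome 18 rose from 1.0 and 2.5 kb to 43.8 and 30.6 kb (3.83, SE 0.39, adjusted p = 0.00115 by limma), the 21-Mb window from 5.45 and 2.0 kb to 32.9 and 32.5 kb (2.94, SE 0.37, adjusted p = 0.00178), and the 32-Mb window from 2.64 and 0.5 kb to 18.7 and 13.9 kb (2.87, SE 0.52, adjusted p = 0.00486). The 6-Mb window was the lone one to fall, from 1.0 and 0.5 kb to 0, and its call ended without WT mock replicate 1 (adjusted p = 0.0623) or either WT PMA library (0.065 and 0.0539). The number of called windows fell from 47 to 30 without WT mock replicate 2 and to 29 without WT PMA replicate 1. It was 16 higher and 3 lower with one tag threshold, and 3 higher and 43 lower after centring, which moves the median of all windows by −1.97. The same shift moves windows empty in both WT groups, such as 35 Mb on chromosome 18.

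In KO cells covered length was 1.5-fold lower after PMA on chromosome 13 and 1.13-fold higher on chromosome 18, without overlap (exact two-sided permutation p = 0.333 each, the smallest possible), while the share of tags inside regions was 3.42% and 3.67% without PMA and 6.69% and 7.96% with it. Of 78 windows 3 were higher and 11 lower, against 17.8% and 5.19% of all windows by limma. Chromosome 13 had 1 higher and 2 lower windows and chromosome 18 had 2 higher and 9 lower. The median difference was 0.0 against 0.29 over all windows, and 6 of the 14 calls rested on group means under 2 kb.

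The 95-Mb window of chromosome 13 rose in KO as it did in WT, from 0.5 and 0 kb to 3.0 and 2.3 kb (1.57, SE 0.38, limma adjusted p = 0.0326), and the 91-Mb window fell from 10.4 and 7.31 kb to 1.5 and 2.5 kb (−1.72, SE 0.37, adjusted p = 0.0246). On chromosome 18 the 3-Mb window rose from 6.7 and 5.76 kb to 17.4 and 14.4 kb (1.22, SE 0.19, adjusted p = 0.00999) and the 46-Mb window from 3.81 and 3.0 kb to 8.27 and 10.1 kb (1.21, SE 0.31, adjusted p = 0.0385). The 35-Mb window fell from 3.0 and 3.16 kb to 0 (−2.03, SE 0.12, adjusted p = 0.00371), the 34-Mb window from 5.6 and 5.0 kb to 0 and 0.5 kb (−2.36, SE 0.57, adjusted p = 0.0321), and the 1-Mb window from 5.95 and 4.41 kb to 0.5 kb in both (−2.03, SE 0.36, adjusted p = 0.0143).

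Leaving out any 1 of the 4 KO libraries ended the calls at 95 and 91 Mb on chromosome 13 (adjusted p from 0.0608 to 0.16) and at 46, 34 and 1 Mb on chromosome 18 (from 0.0591 to 0.164). The 3-Mb call ended without KO PMA replicate 1 (0.0639) or KO mock replicate 2 (0.0556). The calls at 35 Mb and at 114 Mb on chromosome 13 (1 region in each KO mock library and none in KO PMA) rest on groups listed at 0, so leaving out a library is no check of them. The number of called windows fell from 14 to 5 without KO mock replicate 1 or KO PMA replicate 1, to 7 without KO PMA replicate 2 and to 9 without KO mock replicate 2. With one tag threshold 1 window was higher and 5 lower, and after centring 3 were higher and 16 lower, with a shift of −0.21 in the median of all windows.

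**Figure D5:**
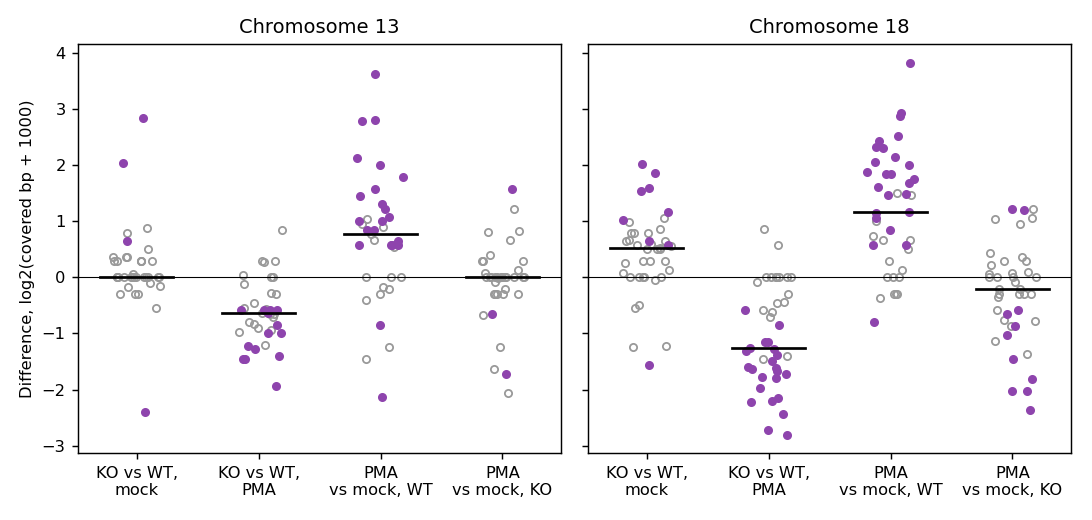
Difference in log2(covered bp + 1000) of each of the 37 tested windows of chromosome 13 and 41 of chromosome 18 in the 4 comparisons (filled points passed limma at an adjusted p under 0.05, open points did not; bars, medians; points are spread sideways for legibility). Most called windows lie below 0 for KO against WT after PMA and above 0 for PMA against mock in WT. Both splits turned over when libraries were centred on their median window. That step moves all windows alike, also those with no called region in either group.

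The response to PMA itself differed between the genotypes. The KO response was smaller than the WT response in 26 of 78 windows, 12 of 37 on chromosome 13 and 14 of 41 on chromosome 18, and larger in 0 (0 also at an unadjusted p under 0.05). Over all windows limma called 27.9% smaller and 2.08% larger. Of the 26 calls, 13 rested on group means under 2 kb, 10 of them among the 12 on chromosome 13. The median difference of responses was −0.98 (all windows −1.09). Without KO mock replicate 1 there were 15 calls, with one tag threshold 10, and centring gave 22 larger and 2 smaller, moving the median of all windows by 1.76. The 34-Mb window of chromosome 18 had the largest such difference among the windows named here. Its mean rose from 1.0 to 7.62 kb in WT and fell from 5.3 to 0.25 kb in KO (difference of responses −4.67, adjusted p = 0.0157).

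As a share of the length covered in each library on chromosomes 1 to 22 and X, with 13 and 18 entering by their intervals alone, both chromosomes lost ground in KO cells. Chromosome 13 held 0.496% and 0.404% in WT mock, 0.294% and 0.252% in KO mock, 0.245% and 0.296% in WT PMA, and 0.0988% and 0.0669% in KO PMA. In limma on the log2 shares of 23 chromosomes, the KO-against-WT difference was −0.72 (SE 0.23, adjusted p = 0.0148) under mock and −1.73 (SE 0.23, adjusted p = 7.09e-05) after PMA. Chromosome 18 held 1.79% and 1.13% in WT mock, 0.788% and 0.647% in KO mock, 1.73% and 1.6% in WT PMA, and 0.327% and 0.406% in KO PMA. Its KO-against-WT difference was −1.0 (SE 0.23, adjusted p = 0.00272) and −2.19 (SE 0.23, adjusted p = 1.68e-05). Under each treatment 47.8% of the 23 chromosomes had a lower share in KO and 43.5% a higher one; shares of a fixed total cannot all move one way.

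These shares are relative. In covered length rather than share, limma gave 0.28 (adjusted p = 0.4) for chromosome 13 and 0.00 (adjusted p = 0.99) for chromosome 18 between the genotypes under mock, where 65.2% of the 23 chromosomes had a larger covered length in KO. After PMA 30.4% had a smaller covered length in KO, and the response to PMA was smaller in KO for 56.5%. The mock call on chromosome 13 ended without WT mock replicate 1 (−0.57, adjusted p = 0.125) or KO mock replicate 2 (−0.61, 0.0775). Without the 6 windows of high input it turned to 1.11 (adjusted p = 0.0133), and without all 7 windows of input over 5 to 1.57 (0.0138), settings chosen after seeing the data, while the difference after PMA stayed at −1.95 (adjusted p = 0.000469).

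PMA went with a smaller share of chromosome 13 in both genotypes, by −0.73 in WT (SE 0.23, limma adjusted p = 0.0283) and −1.74 in KO (SE 0.23, adjusted p = 0.000311). For chromosome 18 the difference was 0.22 in WT (SE 0.23, adjusted p = 0.474) and −0.97 in KO (SE 0.23, adjusted p = 0.00726). Of the 23 chromosomes 26.1% had a smaller share after PMA in WT and 39.1% in KO. The WT call on chromosome 13 ended without any 1 of its 4 libraries (adjusted p from 0.0603 to 0.234) and turned to 2.37 (adjusted p = 0.00124) without the 6 windows of high input and to 2.86 (0.00239) without all 7. The KO call on chromosome 13 became −0.68 (adjusted p = 0.109) without the 6 windows and −0.65 (0.28) without all 7, and the KO call on chromosome 18 became −0.83 (0.0683) without KO mock replicate 1. The 0.22 of chromosome 18 in WT was −0.11 without WT mock replicate 2.

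Few single regions were found again in the second library of their group. In WT mock 13 regions of replicate 1 on chromosome 13 and 22 on chromosome 18 overlapped a region of replicate 2 by at least 1 bp, which was 15.9% and 7.86% of those in replicate 1. In WT PMA these were 11 and 191 regions (8.21% and 26.7%), in KO mock 9 and 31 (10.0% and 13.6%), and in KO PMA 3 and 36 (4.0% and 15.6%). This overlap was not counted on the other chromosomes, so it cannot be called particular to chromosomes 13 and 18. Merging the regions of all 8 libraries gave 592 sites on chromosome 13 and 1799 on chromosome 18. Of these, 87.8% and 73.9% were called in 1 library, beside 67.5% on the other chromosomes, and 0 in all 8. A site from 9843146 to 9844766 on chromosome 18 was called in 7 libraries, in 1 WT mock library and both libraries of each other group, with folds up to 5.84. Sites called in WT PMA libraries alone numbered 220 on chromosome 13 (37.2%) and 738 on chromosome 18 (41.0%), beside 30.6% of 135009 sites on the other chromosomes.

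The strongest regions found in both libraries of a group, meaning those of highest fold, differed from group to group. Many of them were nonetheless also called in a library of another group. A region of few tags reaches a high fold where the input holds very few tags, as in several regions below. The ranking is thus not one of γH2AX amount, and the part of the input in it was not tested. In WT PMA the region from 113846584 to 113847084 on chromosome 13 had folds of 27.4 and 41.6, with no call in the other 6 libraries, and that from 97921084 to 97921584 had 11.6 and 14.2. Their tag counts were low, at 7.36 and 11.2, and 6.25 and 7.66, per 10 M, near the thresholds of these libraries. On chromosome 18 the WT PMA region from 2598878 to 2599637 had folds of 17.1 and 21.9 and was also called in WT mock replicate 1, at 6.41. That from 1404019 to 1405019 had 13.7 and 26.3, in WT PMA alone.

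WT mock cells had their strongest reproducible regions on chromosome 13 at 90888750 to 90889250 (7.38- and 7.55-fold) and 92396764 to 92397403 (4.19- and 3.58-fold), both inside the stretch of high input. On chromosome 18 they lay at 9033225 to 9033725 (12.4- and 15.9-fold) and 2781512 to 2782371 (8.93- and 6.76-fold). KO mock cells had theirs at 90973555 to 90974247 (5.48- and 5.96-fold) and 92116812 to 92117312 (5.22- and 5.96-fold) on chromosome 13, again inside that stretch, and at 3672829 to 3673329 (16.7- and 14.3-fold) and 9997195 to 9997870 (6.61- and 7.74-fold) on chromosome 18. The regions of both mock groups on chromosome 13 thus came from the same 4 windows. Apart from those starting at 92396764 and 90973555, all of these mock regions were also called in another group. The region at 9033225 was called in 5 libraries, at 21.45-fold in KO mock replicate 2. That at 90888750 had 11.5-fold in WT PMA replicate 2. That at 3672829 had 10.48-fold in WT mock replicate 1, and 5.81- and 7.67-fold in WT PMA.

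In KO PMA cells the strongest on chromosome 18 was from 46380063 to 46380563, with folds of 24.4 and 27.9 and tag counts of 6.57 and 7.5 per 10 M. It was called in no other library, although its window held 3.81 and 3.0 kb in KO mock and 5.5 and 3.71 kb in WT PMA. The next, from 12311879 to 12312379, had 7.13 and 8.14, and 6.61 in WT PMA replicate 1. On chromosome 13 the KO PMA regions were from 111352642 to 111353142 (5.6- and 6.39-fold) and from 108530497 to 108530997 (2.8- and 3.68-fold). The first was also called in WT PMA replicate 1, at 6.16-fold. The second was also called in both WT mock libraries and in WT PMA replicate 1.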

How the data were processed

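γH2AX ChIP-seq was deposited for 8 K562 libraries, with 1 WT mock input. The submitters' processing notes name CASAVA 1.4, BWA, HOMER and hg19. HOMER was run by the authors on every library against that input, per the file headers, in windows of 500 bp with at least 2-fold over input, counting at most 1 tag per base pair. The deposited signal is a region's tags normalised by the authors to 10 M tags. The deposited fold is the authors' ratio of tags to input tags at one depth, and the deposited score is HOMER's region score, used only to rank regions. Start and end are as deposited. Fold and score are the authors' values and describe regions within a list.

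Groups came from the sample titles. The positions, lists and tests were chosen with earlier results of these data known. Covered length was summed after merging, per window of 1 Mb. Windows covered in at least 2 libraries were fitted with limma 3.58.1 (R 4.3.3, with trend) after log2(covered bp + 1000), in 1 fit of 4 groups and all 8 libraries, Benjamini-Hochberg adjusted over 1927 windows. Chromosomes 13 and 18 entered with the regions inside the limits only. Shares were fitted over 23 chromosomes on log2 percent. Tests were two-sided and checked on simulated data. Windows named are, per comparison and chromosome, the 3 largest differences in each direction past the threshold, and per group the 3 fullest; regions named are, per group and chromosome, the 2 with the highest lower fold among those called in both libraries (at most 1 per Mb), and the longest. Gene names of windows were not used here, as the gene table is on another build. Alternatives were a fold of 6, regions of at least 1000 bp, one tag threshold (7.69 tags per 10 M per 500 bp), the same number of regions (11959), other pseudocounts, filters and window sizes, centring, a replicate block and leaving out each library. Python 3.11.15, numpy 2.4.6, pandas 2.3.3 and scipy 1.17.1 did the other steps.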

Additional observations from a re-analysis of the deposited data

Results flagged for a closer look

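Several responses to PMA differed between the genotypes by a test of the difference itself (KO response minus WT response, limma, log2 scale). As a share of the library the difference was −1.01 for chromosome 13 (adjusted p = 0.032) and −1.19 for chromosome 18 (adjusted p = 0.0165). The chromosome 13 difference was 0.0266 (adjusted p = 0.949) with one tag threshold and −1.26 (0.0704) with the same number of regions, so its call did not hold. The first also fell short of the threshold without any 1 library other than KO PMA replicate 1 (adjusted p from 0.0568 to 0.151), and the second without KO mock replicate 1 (−1.05, 0.0911). Without the 6 windows of high input the chromosome 13 difference was −3.06 (adjusted p = 0.00129).

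Among single windows the difference of responses was −3.55 at 113 Mb (adjusted p = 0.0116) and −2.82 at 99 Mb (0.018) on chromosome 13. On chromosome 18 it was −4.67 at 34 Mb (0.0157), −2.98 at 20 Mb (0.0241), −2.87 at 12 Mb (0.0173), −2.66 at 32 Mb (0.0431), −2.03 at 35 Mb (0.00942) and −1.89 at 21 Mb (0.0422). The 20-Mb window went from 11.8 and 6.96 kb to 34.8 and 35.3 kb in WT and from 17.1 and 7.05 kb to 3.29 and 5.99 kb in KO, so the means moved in opposite directions. The same was true at 34 Mb. At 12, 21 and 32 Mb the means rose in both genotypes and by less in KO, and at 35 Mb no WT library held a region.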

How the results depend on the processing

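Counts of called windows depended most on which regions entered. Regions of at least 6-fold left 6, 24, 30 and 0 calls for KO against WT mock, KO against WT after PMA, PMA in WT and PMA in KO, and 15 for the difference of responses (the 0 stands beside 9 of 60 windows at an unadjusted p under 0.05 in limma). Regions of at least 1000 bp left 0 (1 of 20 unadjusted), 10, 11, 2 and 5. One tag threshold gave 11, 19, 6 and 10 for the last 4, and the same number of regions gave 8, 11, 4, 5 and 3. A pseudocount of 100 bp gave 24 for KO against WT after PMA, and windows covered in at least 4 libraries gave 23 there, 31 for PMA in WT and 17 for the difference of responses. Leaving out 1 library at a time gave 8 to 14, 20 to 28, 29 to 38, 5 to 9 and 15 to 27 calls.

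The share of chromosome 13 between genotypes under mock was 0.82 with 6-fold regions, −0.67 with the same number of regions, 0.28 as covered length, 1.11 without the 6 windows of high input and 1.57 without all 7 of input over 5. Its PMA difference was 1.60, 0.95 and 2.37 in WT and −0.58, −0.59 and −0.68 in KO (6-fold regions, covered length, without the 6 windows), and 2.86 and −0.65 without all 7, and the difference of responses 0.0266 with one tag threshold. For chromosome 18, KO against WT under mock was −1.50 with regions of at least 1000 bp and 0.00 (0.0029) as covered length. PMA in WT was −0.01 (−0.0055) with 6-fold regions, 1.89 with regions of at least 1000 bp and 1.91 as covered length. PMA in KO was −0.74 with regions of at least 1000 bp and 0.18 as covered length. Leaving out 1 library, shares on chromosome 13 ran from −0.87 to −0.57 (KO against WT, mock), −2.01 to −1.45 (after PMA), −0.88 to −0.59 (PMA in WT), −2.02 to −1.46 (PMA in KO) and −1.29 to −0.73 (difference of responses), and on chromosome 18 from −1.33 to −0.67, −2.35 to −2.03, −0.11 to 0.55, −1.13 to −0.82 and −1.52 to −0.86.

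Covered length by the exact test was −0.44 for chromosome 13 under mock with the same number of regions, −0.39 and −0.94 for PMA in WT with one tag threshold and the same number, and 0.27 for PMA in KO with 6-fold regions. KO against WT after PMA on chromosome 13 was −0.35 with one tag threshold, and the groups overlapped. For chromosome 18 it was −0.15, −0.31 and −1.23 under mock (6-fold, at least 1000 bp, same number) and −0.13, −0.01 (−0.0051) and −0.83 for PMA in KO (6-fold, one threshold, same number). With one tag threshold chromosome 18 under mock was 0.996, higher in KO and without overlap. With 6-fold regions 1, 3, 0 and 0 regions of chromosome 13 and 4, 28, 2 and 5 of chromosome 18 were found in both libraries (WT mock, WT PMA, KO mock, KO PMA). Chromosome 13 with regions of at least 1000 bp gave no share or length because a library was listed at 0. The causes of these shifts were not tested. A replicate block gave 11, 34, 46, 13 and 27 called windows. The labels do not say whether the replicate numbers pair the samples, and the main fits did not use them as pairs. The deviations of same-numbered libraries correlated at 0.056, −0.070, 0.262 and −0.012, which does not settle it. Of 202 alternative values of the main results, 122 kept their direction and size or side, 42 moved, 14 were weaker, 2 stronger and 22 reversed.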
